A study of Mus musculus with 5 samples.

Results

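The genes described here make, package and clear serotonin (5-HT). They are Tph1, Ddc, Gch1, Qdpr, Slc18a1, Slc18a2, Slc6a4, Maoa and Maob, together with the amino acid transporter Slc38a11, a list of names that sets no threshold on measured values. All 10 were present among the 22042 genes of the bulk table and among the 27998 genes of the droplet matrix.

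Most of the body's 5-HT is made in the gut, by enterochromaffin cells, which are enteroendocrine cells (EECs) that sense the lumen and signal to nerves and to neighboring epithelium. Tryptophan is hydroxylated by TPH1, the rate-limiting step of this synthesis outside the brain, and the product is decarboxylated by DDC. The hydroxylase needs tetrahydrobiopterin, which GCH1 begins to make and QDPR restores after use. Vesicles are then filled by the vesicular monoamine transporters VMAT1 (Slc18a1) and VMAT2 (Slc18a2), and released 5-HT is taken up by the serotonin transporter SERT (Slc6a4) and oxidized by the monoamine oxidases (Maoa, Maob).

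All mice were on a C57Bl/6J background. For the bulk data, 6 mice aged 6 to 8 weeks carried Cck-Cre and the Cre-dependent reporter R26-LSL-tdTomato, and their small intestinal epithelium was sorted into CCK+ (tdTomato+) and CCK- (tdTomato-) cells. Mice A, B and F were fasted overnight, and mice C, D and E were given a liquid meal, Ensure, after the fast, so that each of the 4 groups held 3 libraries. The letters are those of the table, and a CCK+ and a CCK- library with the same letter were taken as 1 mouse. For the droplet data, tdTomato+ cells of the small intestine came from 4 mice aged 6 weeks, males and virgin females, with Neurog3-Cre and the same reporter, pooled in 1 library. The treatment label of the droplet sample is none, whereas all bulk mice were fasted overnight. Both reporters stay on in cells that once expressed Cre and in their descendants, so a tdTomato+ cell need not have expressed Cck or Neurog3 when it was collected.

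Values in the bulk table are normalized counts as deposited, and the libraries summed to between 7061155 and 11371114 of them, with 16656 to 18855 genes above 0. Cck itself read 14837 to 32592 in the CCK+ libraries and 27.6 to 86.0 in the CCK- libraries, which fits the cell labels of the table. In the droplet matrix, 9451 barcodes had more than 1000 genes and under 10% of their unique molecular identifiers (UMIs) on mitochondrial genes, with a median of 5984 UMIs. These cells were divided by UMIs per 10000: 2532 cells had Chgb of at least 100 and Cck under 200, 1246 had Cck of at least 500, 309 had Gip, Ghrl or Sst of at least 500, and 5364 remained. The first group is called Chgb-high Cck-low here, after the granule protein chromogranin B. Of the listed enterochromaffin markers that the rule did not use, Reg4, Afp and Lmx1a were higher in it than in Cck-high cells. Reg4 was at 279 UMIs per 10000 against 19.5, Afp at 28.2 against 1.87 and Lmx1a at 1.67 against 0.16. The other such markers, Tac1 and Fev, are not given by group here.

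The promoters of 3 members are shown because the results turn on these genes: of the 10 genes, Tph1 and Slc38a11 had the 2 largest fold changes in CCK+ cells, and Slc18a2 had the largest ratio between parts of the Chgb-high Cck-low cells. RefSeq tables on GRCm38.p6 held promoters of 8 of the 10 members, not of Slc18a1 and Maob. Each window runs 5′ to 3′ on the gene's strand, from 250 bases before to 50 bases after an annotated start. Capitals mark the motifs searched on both strands.
Tph1, chr7:46672488-46672787, minus strand: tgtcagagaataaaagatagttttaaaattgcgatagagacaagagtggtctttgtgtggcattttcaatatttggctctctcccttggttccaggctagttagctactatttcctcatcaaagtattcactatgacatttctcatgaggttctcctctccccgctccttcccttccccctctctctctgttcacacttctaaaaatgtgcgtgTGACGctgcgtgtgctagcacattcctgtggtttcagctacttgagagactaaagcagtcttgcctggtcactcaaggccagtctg
Tph1, start inside the gene, chr7:46667328-46667627, minus strand: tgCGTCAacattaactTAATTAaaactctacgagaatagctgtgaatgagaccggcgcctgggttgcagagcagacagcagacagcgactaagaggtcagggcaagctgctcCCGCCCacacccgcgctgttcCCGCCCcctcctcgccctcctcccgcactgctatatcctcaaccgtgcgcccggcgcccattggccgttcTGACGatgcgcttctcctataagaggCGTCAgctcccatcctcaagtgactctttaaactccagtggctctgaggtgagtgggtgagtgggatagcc
Slc38a11, chr2:65363977-65364276, minus strand: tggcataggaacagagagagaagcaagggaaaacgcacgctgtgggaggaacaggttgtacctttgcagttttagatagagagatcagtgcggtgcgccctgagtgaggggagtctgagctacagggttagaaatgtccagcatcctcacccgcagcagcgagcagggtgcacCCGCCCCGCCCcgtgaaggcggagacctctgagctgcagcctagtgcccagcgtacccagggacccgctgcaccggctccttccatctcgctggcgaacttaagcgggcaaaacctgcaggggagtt
Slc18a2, chr19:59260628-59260927, plus strand: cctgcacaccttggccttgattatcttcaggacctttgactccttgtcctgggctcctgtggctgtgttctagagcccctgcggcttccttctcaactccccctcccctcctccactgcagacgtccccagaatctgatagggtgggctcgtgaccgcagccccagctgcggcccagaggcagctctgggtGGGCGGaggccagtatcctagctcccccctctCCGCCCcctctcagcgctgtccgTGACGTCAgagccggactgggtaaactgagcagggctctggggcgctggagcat

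The motifs were CAGATG (an E-box bound by NEUROD1 and NEUROG3), GGGCGG (the GC box), TATAAA (the TATA box), TGACG (the core of the cAMP response element, also contained in the full element TGACGTCA) and TAATTA (a homeodomain core). Of 32851 mouse promoters of the same length, CAGATG was in 17.2%, GGGCGG in 35.7%, TATAAA in 13.6%, TGACG in 20.8%, TGACGTCA in 1.8% and TAATTA in 5.3%. The window at the inner Tph1 start held 3 TGACG, 2 GGGCGG and 1 TAATTA, whereas the window at the outer start held 1 TGACG, 36 bases before the start. Slc18a2 held the full TGACGTCA beginning 4 bases before its start, with 2 GGGCGG. Slc38a11 held 2 GGGCGG that overlap each other. The E-box CAGATG was found in 1 member promoter, that of Qdpr. The share of G and C was 45.0% at the outer Tph1 start, 58.0% at the inner one, 60.0% for Slc38a11 and 64.0% for Slc18a2, against a median of 52.7% over all promoters. These matches describe letters in the windows, and the data hold no measurement of binding.

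The first question was how far CCK+ cells differ from other epithelial cells in these genes. In the bulk libraries, 6 of the 10 genes were higher in CCK+ cells (Tph1, Slc38a11, Slc18a1, Slc18a2, Gch1 and Qdpr), 3 were lower (Maoa, Maob and Slc6a4) and Ddc did not pass the test. Over all 22042 genes, 33.7% passed the same test, 19.6% higher and 14.1% lower. The median log2 fold change was 0.89 over the 10 genes and 0.09 over all genes. When the libraries were rescaled to the same sum the latter became 0.35, and relative to either value the 6 genes were higher and the 3 lower. In bulk libraries, fewer cells of a type and less RNA per cell cannot be told apart.

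**Figure D1:**
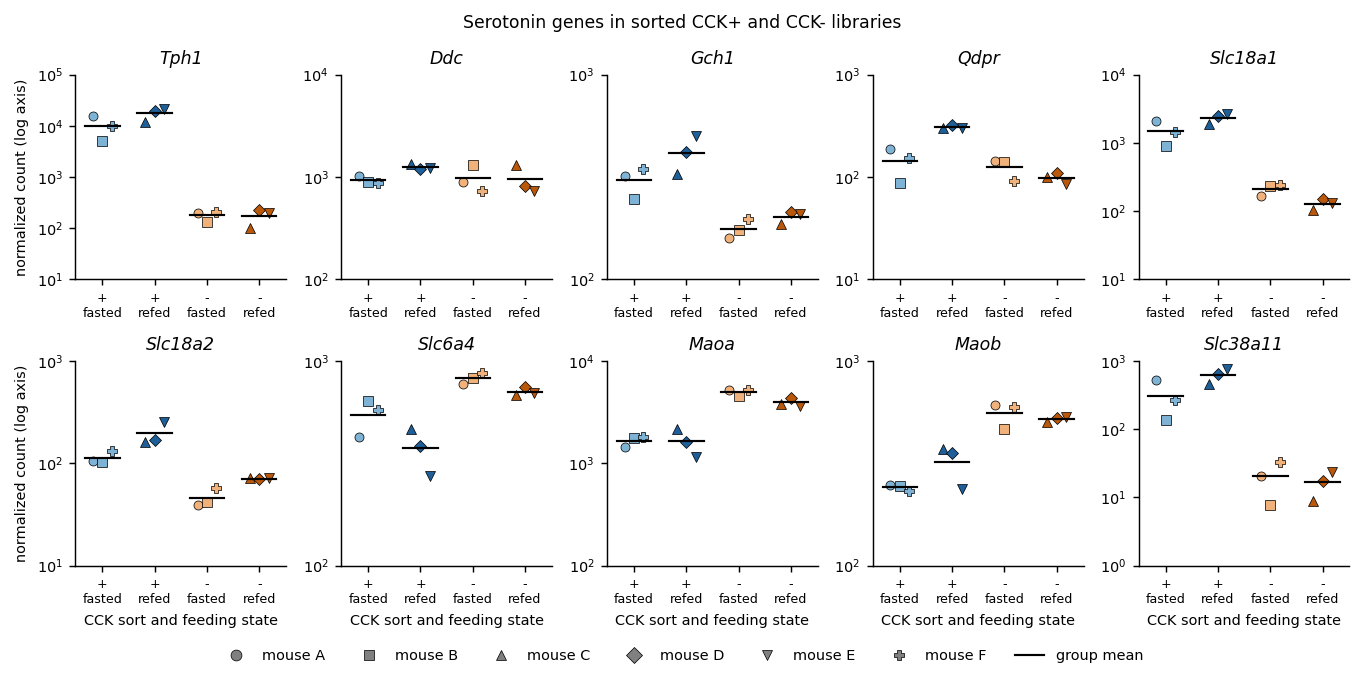
Normalized counts (log axis) of the 10 genes in each bulk library, by CCK sort and feeding state; each symbol is 1 mouse and the line is the mean of 3 libraries. Tph1, Slc18a1 and Slc38a11 lie far higher in all CCK+ libraries, Ddc overlaps between sorts, and Maoa, Maob and Slc6a4 lie higher in all CCK- libraries.

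Among the synthesis genes, Tph1 set CCK+ cells apart the most. It read 15465, 4994 and 9773 normalized counts in the fasted CCK+ libraries of mice A, B and F. In the refed CCK+ libraries of mice C, D and E it read 11695, 19744 and 21358. In the CCK- libraries it read 198, 133 and 211 after fasting and 100.2, 223 and 202 after refeeding. The lowest CCK+ library was thus far above the highest CCK- library, and all 6 mice showed the difference, with a ratio of 37.4 in mouse B to 117 in mouse C. Over both states Tph1 was 72.3-fold higher in CCK+ cells (log2 6.18 ± 0.27 SE, adjusted p = 8.38e-10, limma).

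Ddc, which encodes the next enzyme, behaved differently. The CCK+ libraries read 1011, 898 and 865 after fasting and 1345, 1206 and 1210 after refeeding. The CCK- libraries read 899, 1300.1 and 733 after fasting and 1296, 814 and 734 after refeeding. The groups overlapped, and the ratio within a mouse ran from 0.691 to 1.65. The difference was 0.20 on the log2 scale (95% interval -0.14 to 0.54, adjusted p = 0.37). When the libraries were rescaled to the same sum, Ddc passed the test, at 0.60 with an adjusted p of 0.00917.

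The cofactor enzymes were modestly higher in CCK+ cells. Gch1 read 318, 248 and 346 in fasted and 327, 417 and 501 in refed CCK+ libraries, against 159 to 213 over the CCK- libraries. The groups did not overlap, and all 6 mice had more Gch1 in CCK+ cells, 1.85-fold in the fit (log2 0.89 ± 0.14 SE, adjusted p = 0.000149). Qdpr read 186, 86.7 and 153 in fasted and 298, 324 and 298 in refed CCK+ libraries. In the CCK- libraries Qdpr ran from 84.6 to 144, so the groups overlapped through mouse B, the 1 mouse of 6 with less Qdpr in CCK+ than in CCK- cells. Over both states Qdpr was 1.86-fold higher in CCK+ cells (log2 0.89 ± 0.19 SE, adjusted p = 0.00204), but in the fasted libraries alone the difference was 0.14 on the log2 scale (adjusted p = 0.862). Gch1 also missed the threshold in the fasted libraries alone (log2 0.77, adjusted p = 0.0501).

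The 2 vesicular transporters were both higher in CCK+ cells, by different amounts. Slc18a1 read 2072, 913 and 1438 in fasted and 1858, 2456 and 2636 in refed CCK+ libraries. In CCK- libraries it read 166, 235 and 240 after fasting and 104, 150 and 131 after refeeding. No CCK- library came near a CCK+ library, and Slc18a1 was 10.9-fold higher in CCK+ cells (log2 3.44 ± 0.19 SE, adjusted p = 7.78e-09). Slc18a2 read 106, 103 and 131 in fasted and 163, 170.4 and 253 in refed CCK+ libraries. In CCK- libraries Slc18a2 read 38.8, 41.5 and 57.1 after fasting and 71.3, 69.6 and 71.8 after refeeding. The groups did not overlap, the ratio within a mouse was 2.28 to 3.52, and the fitted difference was 2.57-fold (log2 1.36 ± 0.17 SE, adjusted p = 2.81e-05).

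Slc38a11, a sodium-coupled amino acid transporter of the SNAT family, rose with Tph1 and Slc18a1. It read 517, 137 and 267 in fasted and 465, 636 and 771 in refed CCK+ libraries. The CCK- libraries read 20.8, 7.76 and 33.0 after fasting and 8.99, 17.2 and 23.7 after refeeding. The lowest CCK+ library again exceeded the highest CCK- library, and the fitted difference was 23.1-fold (log2 4.53 ± 0.37 SE, adjusted p = 4.3e-07). Among the 6 CCK+ libraries, Slc38a11 varied 5.62-fold and Tph1 4.28-fold, with mouse B lowest in both. Per 1000 normalized counts of Tph1, Slc38a11 kept between 27.3 and 39.8 and Slc18a1 between 123 and 183, whereas Ddc ranged from 56.6 to 180. The CCK+ library of mouse B also had the lowest sum of endocrine markers of the 6, 81249, and the highest sum of enterocyte markers, 273748. The part of cell content in these ratios was not tested.

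The clearance genes ran the other way. Maoa, whose product oxidizes 5-HT inside cells, read 1433, 1756 and 1788 in fasted and 2174, 1618 and 1145 in refed CCK+ libraries. In CCK- libraries it read 5238, 4503 and 5206 after fasting and 3812, 4327 and 3629 after refeeding. The groups did not overlap, and Maoa was 2.72-fold lower in CCK+ cells (log2 -1.44 ± 0.14 SE, adjusted p = 2.52e-06). Maob, its neighbor on the X chromosome, read 233 to 372 in CCK+ and 463 to 607 in CCK- libraries, 1.94-fold lower in CCK+ cells (log2 -0.96 ± 0.13 SE, adjusted p = 4.66e-05). Slc6a4 read 423, 635 and 577 in fasted and 464, 386 and 275 in refed CCK+ libraries, against 682 to 874 in CCK- libraries. It was 1.72-fold lower in CCK+ cells (log2 -0.78 ± 0.14 SE, adjusted p = 0.000504), though in the fasted libraries alone it missed the threshold (log2 -0.61, adjusted p = 0.0983). For all 3 genes, each of the 6 mice had the lower value in its CCK+ library.

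Markers of other cells moved with the sort. All 8 lymphocyte markers were higher in CCK+ cells, with summed values of 4486 to 9889 in CCK+ against 446 to 1095 in CCK- libraries. Mast cell markers bear on 5-HT because rodent mast cells also make it. Of these, 5 of 9 were in the table and 3 were higher, with sums of 171 to 438 against 17.8 to 62.3. Cpa3, 1 of the 5, read 0 to 7.3 over the libraries. Enterocyte markers were lower in CCK+ cells for 5 of 7, with sums of 109086 to 273748 against 260284 to 387551. Of 8 enteric neuron markers, 3 were higher in CCK+ cells, with sums of 1385 to 3830 against 57.4 to 114, and all 8 endocrine and all 6 enterochromaffin markers were higher. Macrophage markers were higher for 3 of 5 (sums of 111 to 1304 against 19.8 to 89.8), and of 4 stromal markers Vim was higher (sums of 61.2 to 241 against 11.95 to 31.3), both without overlap. Of 5 cycling crypt markers Mki67 and Olfm4 were higher, with sums of 1292 to 3627 against 765 to 2231, which overlapped. The part of these other cells in the bulk differences was not tested. In the droplet library, which was sorted by another Cre line, 5 of the 9 mast cell genes (Cpa3, Mcpt1, Ms4a2, Cma1 and Tpsab1) had 0 UMIs over the 9451 cells, which allows a share of cells with a UMI of up to 0.0317% for each. The other 4 were detected, Kit with 430 UMIs, Tpsb2 with 169, and Mcpt2 and Fcer1a with 1 each.

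**Figure D2:**
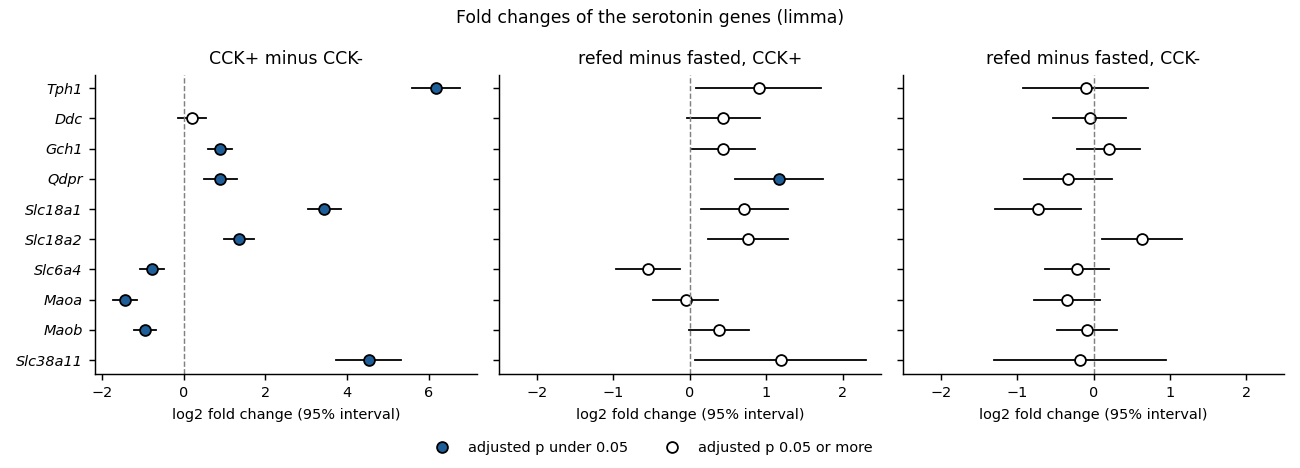
Log2 fold changes of the 10 genes with 95% intervals from limma, for CCK+ against CCK- cells and for refed against fasted mice in each sort; filled points passed an adjusted p of 0.05. Tph1 (6.18), Slc38a11 (4.53) and Slc18a1 (3.44) lie farthest right in the first panel, and Qdpr in CCK+ cells (1.17) is the only filled point in the refeeding panels.

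The second question was whether a meal changed these genes. In CCK+ cells 1 of the 10 genes passed the test, Qdpr, against 2.55% of all genes. Its refed libraries, at 298 to 324, all lay above its fasted libraries, at 86.7 to 186, a 2.25-fold rise (log2 1.17 ± 0.27 SE, adjusted p = 0.0345). This call was lost in 11 of 18 alternatives, in which the adjusted p ran from 0.0264 to 0.166. Without the fasted CCK+ library of mouse B, which had the least Qdpr, the difference was 0.85 on the log2 scale (adjusted p = 0.114), and leaving out any of the refed CCK+ libraries also lost the call.

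The other 9 genes missed the threshold in CCK+ cells after adjustment, although 7 of the 10 had an unadjusted p under 0.05 (3736 of 22042 genes did). Tph1 had a difference of 0.90 on the log2 scale (95% interval 0.08 to 1.72, adjusted p = 0.248), and its groups overlapped because fasted mouse A, at 15465, exceeded refed mouse C, at 11695. Slc38a11 differed by 1.19 (0.07 to 2.31, adjusted p = 0.264) and Slc18a1 by 0.71 (0.15 to 1.28, adjusted p = 0.183). For Slc18a2 (0.76, adjusted p = 0.126) and Ddc (0.44, adjusted p = 0.344) every refed library was above every fasted one, though neither passed the test. The share of all genes without overlap was not counted. Slc6a4 had the most negative value, -0.55 (-0.97 to -0.13, adjusted p = 0.17), and Maoa was at -0.05 (-0.48 to 0.38, adjusted p = 0.939). The median over the 10 genes was 0.58, against 0.01 over all genes, or 0.20 after rescaling to the same sum.

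The endocrine content of the CCK+ libraries also moved with the meal. The summed level of 8 endocrine markers was 81249 to 169575 in fasted and 211217 to 268811 in refed CCK+ libraries, without overlap, though none of these markers passed the test singly. Of 6 enterochromaffin markers, Afp (log2 1.59, adjusted p = 0.0228) and Reg4 (1.31, adjusted p = 0.0285) rose, and the sum was 62295 to 144357 in fasted and 183652 to 249799 in refed libraries. Per 100000 of the endocrine marker sum, Tph1 was 6147 to 9120 in fasted and 5537 to 9169 in refed libraries, and Slc18a1 was 1077 to 1222 and 879 to 1131. Both ranges overlapped on this scale. Qdpr was 107 to 115 in fasted and 121 to 141 in refed libraries, still without overlap, and Slc6a4 was 249 to 782 and 118 to 220, also without overlap. Differences on this scale were not tested. Cycling crypt markers moved with the meal too. Their sum was 1292 to 2738 in fasted and 2657 to 3627 in refed CCK+ libraries, with overlap, and 765 to 1212 and 1641 to 2231 in CCK- libraries, without overlap. Of the 5 markers, Mki67 rose in both sorts (log2 0.96, adjusted p = 0.0344 in CCK+ cells) and Top2a in CCK- cells. In the droplet library, cells led by cycling markers held Qdpr at 0.940 UMIs per 10000 (95% Poisson interval 0.863 to 1.02), against 3.85 in Chgb-high Cck-low cells and 0.767 in free RNA. The part of endocrine content and of cycling cells in the refeeding differences was not tested.

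In CCK- cells none of the 10 genes passed the test for refeeding by limma, against 1.23% of all genes. An unadjusted p under 0.05 was found for 2635 of 22042 genes and for 2 of the 10. The 2 were Slc18a1, at -0.72 (95% interval -1.29 to -0.16, adjusted p = 0.253), and Slc18a2, at 0.64 (0.12 to 1.17, adjusted p = 0.282). The fasted and refed CCK- libraries did not overlap in either gene, and the share of all genes without overlap was not counted. Tph1 in CCK- cells was at -0.10 (-0.92 to 0.72, adjusted p = 1). The test of whether refeeding differed between CCK+ and CCK- cells was passed by none of the 10 genes and by 0.00454% of all genes. By unadjusted p, 1378 of 22042 genes were under 0.05. Among the 10 genes 2 were, Qdpr (difference of 1.5 on the log2 scale, adjusted p = 0.565) and Slc18a1 (1.44, adjusted p = 0.568).

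Genes around the pathway were followed in the same libraries. Among further genes of tetrahydrobiopterin metabolism, Pcbd1, which regenerates the cofactor together with QDPR, was higher in CCK+ cells (log2 1.40, adjusted p = 3.18e-06). Of the other aromatic amino acid hydroxylases, 1 of 3 was in the table: Th, for tyrosine hydroxylase, read 46.0 to 150 in CCK+ libraries, was listed at 0 in 5 CCK- libraries and read 1.7 in the other (adjusted p = 8.9e-08). All 7 genes that supply tryptophan or related amino acids across the membrane passed the test, 2 higher and 5 lower. The higher ones were Slc1a5 (log2 1.31, adjusted p = 0.00183) and Slc7a5 (2.51, adjusted p = 0.00504), the latter with 1084 in refed CCK+ library E and at most 74.6 in the others. Among the lower ones were Slc7a7 (-1.31, adjusted p = 8.66e-06) and Slc7a8 (-1.04, adjusted p = 3.61e-05), light chains of amino acid exchangers.

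Of 6 genes for competing uses of tryptophan, Ido1 was lower in CCK+ cells (log2 -1.44, adjusted p = 0.00155), Wars was higher (0.56, adjusted p = 0.0267) and 4 did not pass. Among the low-affinity amine carriers, Slc22a3 (2.27, adjusted p = 0.00038) and Slc29a4 (2.08, adjusted p = 0.0176) were higher, and Slc47a1 (-1.0, adjusted p = 0.00016) was lower. Of 12 genes for further breakdown and conjugation in the table, 2 were higher, including the sulfotransferase Sult1a1 (1.76, adjusted p = 0.0151), and 5 lower. The latter included another sulfotransferase, Sult1b1 (-1.81, adjusted p = 1.67e-06), and the aldehyde dehydrogenases Aldh1a1 (-1.33, adjusted p = 3.47e-05) and Aldh9a1 (-1.31, adjusted p = 2.21e-06). Of 4 other amine vesicle and granule genes in the table Slc18b1 was lower (-0.94, adjusted p = 0.00254). Of 9 5-HT receptor genes in the table, Htr1d was higher (2.86, adjusted p = 0.00131).

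Refeeding moved 4 of the 50 surrounding genes in the table in CCK+ cells, all downward, where 1.23% of all genes were lower. They were the amino acid transporters Slc6a19 (log2 -1.48, adjusted p = 0.0097), Slc7a8 (-0.98, adjusted p = 0.0167) and Slc16a10 (-0.94, adjusted p = 0.0139), and the amine carrier Slc47a1 (-0.90, adjusted p = 0.0458). Slc6a19 read 5194, 10031 and 7743 in fasted and 4044, 2151 and 2119 in refed CCK+ libraries, without overlap. In the droplet library Slc7a8 was at 0.796 UMIs per 10000 in cells led by enterocyte markers and 0.0547 in Cck-high cells. The enterocyte marker sum was 164078 to 273748 in fasted and 109086 to 176478 in refed CCK+ libraries, with overlap, and the part of enterocytes was not tested.

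The third question was which cells carry these transcripts, and it was taken to the droplet library. With 1 library of pooled mice no test was possible, and the 95% intervals (Poisson for levels, exact binomial for shares) cover counting error only. Among the 4 groups, 8 of the 10 genes had their highest level in Chgb-high Cck-low cells, the exceptions being Maoa and Slc6a4. The share of all genes with their highest level there was not counted, so the count does not set these genes apart. The same 8 genes were highest there under each of 8 other settings for the cell filter, the grouping and the depth. All of these settings kept the 4 groups. In smaller parts of the other groups, given below, levels of Maob and Gch1 were higher.

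Tph1 was at 38.4 UMIs per 10000 (95% interval 38.0 to 38.8) in Chgb-high Cck-low cells, 6.38 in Cck-high cells, 1.27 in Gip-, Ghrl- or Sst-high cells and 1.08 in the remaining cells. Free RNA, taken from barcodes with 1 to 100 UMIs, stood at 6.15. At least 1 Tph1 UMI was found in 99.3% of Chgb-high Cck-low cells, 66.3% of Cck-high cells, 33.7% of Gip-, Ghrl- or Sst-high cells and 36.6% of the remaining cells. After thinning to 2000 UMIs per cell, which left out 58 Chgb-high Cck-low cells, the shares were 97.9%, 47.3%, 14.9% and 13.9%. Cells led by enterocyte markers, which should lack the gene, had a share of 34.4% at a median of 9127 UMIs, or 11.5% after thinning. The share in Gip-, Ghrl- or Sst-high cells, whose median was 6593 UMIs, was close to that share before thinning. Their Tph1 level, 1.27 (1.13 to 1.43), was above that of cells led by enterocyte markers, 0.829 (0.747 to 0.917). Within this group, Gip-high cells were at 2.01 (1.73 to 2.33). Ghrl-high cells were at 0.713 (0.565 to 0.887) and Sst-high cells at 0.909 (0.589 to 1.34), and both intervals overlapped that of cells led by enterocyte markers. All of these levels were below free RNA. Median depth was 3216 UMIs in Chgb-high Cck-low and 6296 in Cck-high cells.

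**Figure D3:**
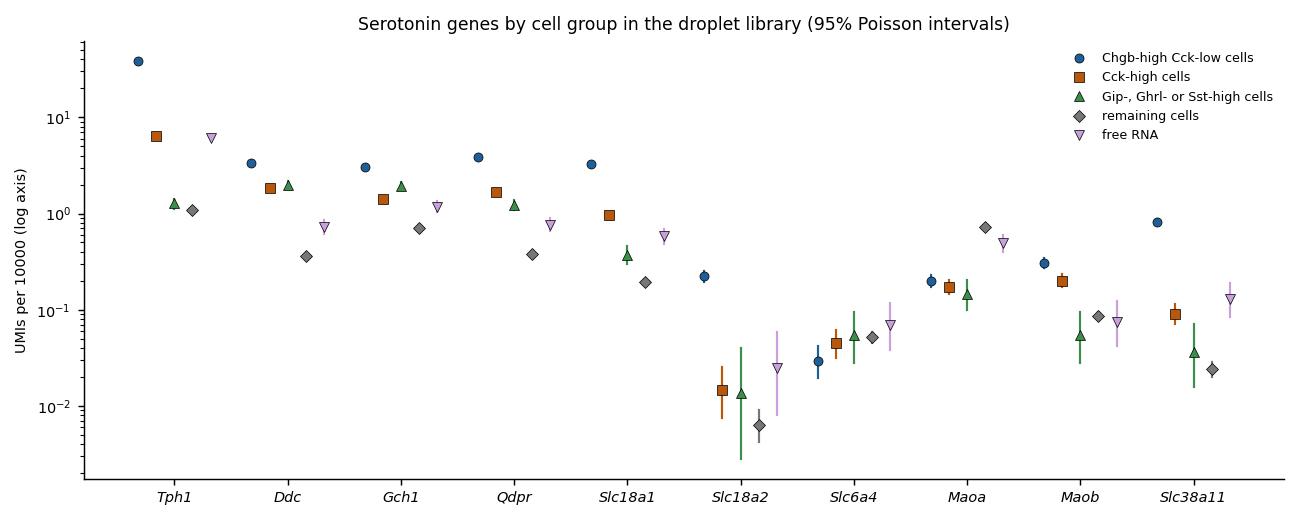
UMIs per 10000 (log axis) of the 10 genes in 4 groups of cells and in free RNA, with 95% Poisson intervals that cover counting error only. Chgb-high Cck-low cells are highest for 8 genes, the remaining cells are highest for Maoa, and the intervals for Slc6a4 overlap between most groups.

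Slc18a1 followed Tph1 in order but with a shallower slope. It was at 3.29 (3.18 to 3.41) in Chgb-high Cck-low cells, 0.967 in Cck-high cells, 0.374 in Gip-, Ghrl- or Sst-high cells and 0.193 in the remaining cells, with free RNA at 0.578. The ratio of Chgb-high Cck-low to Cck-high cells was 3.41 for Slc18a1 and 6.02 for Tph1. Slc38a11 showed a ratio of 9.05, from 0.824 (0.768 to 0.884) to 0.0911, with free RNA at 0.130. Of the 4 groups taken whole, only Chgb-high Cck-low cells stood above free RNA. Slc18a2 had 214 UMIs in Chgb-high Cck-low cells, a level of 0.222 (0.194 to 0.254), and 12 UMIs in Cck-high cells, a level of 0.0146 (0.00753 to 0.0255). Its share of cells with a UMI was 6.32% and 0.803%.

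Levels of Ddc and the cofactor genes differed less between the EEC groups than those of Tph1. Ddc was at 3.34 (3.23 to 3.46) in Chgb-high Cck-low cells, 1.84 (1.75 to 1.94) in Cck-high cells and 1.98 (1.80 to 2.18) in Gip-, Ghrl- or Sst-high cells, and the latter 2 intervals overlapped. The remaining cells were at 0.364 and free RNA at 0.732. Within the third group, Gip-high cells had 3.0 (2.65 to 3.38), Ghrl-high cells 1.36 (1.16 to 1.6) and Sst-high cells 0.764 (0.473 to 1.17). Gch1 was at 3.02 (2.91 to 3.13) in Chgb-high Cck-low cells, with 1.41 (1.33 to 1.49) in Cck-high and 1.93 (1.75 to 2.12) in Gip-, Ghrl- or Sst-high cells, and reached 3.46 (2.80 to 4.22) in the 48 Sst-high cells, an interval that overlaps that of Chgb-high Cck-low cells. Free RNA held Gch1 at 1.18 (1.03 to 1.34), so that Cck-high cells were barely above it and their intervals met. Qdpr was at 3.85 (3.72 to 3.97), 1.67 and 1.23 in the same order, with free RNA at 0.767 (0.651 to 0.898).

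Counting cells rather than UMIs gave a narrower picture. Transcripts of Tph1, Ddc and Slc18a1 were found together in 43.2% (41.3 to 45.2%) of Chgb-high Cck-low cells, 21.6% of Cck-high cells, 7.77% of Gip-, Ghrl- or Sst-high cells and 2.72% of the remaining cells. After thinning the shares were 24.1%, 3.13%, 0.324% and 0.298%. Within Cck-high cells, Ddc was found in 66.6% of the 826 cells with Tph1 and in 61.0% of the 420 without. Slc38a11 was found in 6.66% of those with Tph1 and in 1.43% of those without, or 3.40% and 0.761% after thinning.

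The Chgb-high Cck-low cells were not uniform. In 431 of them Tac1, the gene for substance P, was at 10 UMIs per 10000 or more, and the other 2101 were below. The median depths were similar, 3370 and 3172 UMIs. Slc18a2 was at 0.759 (0.637 to 0.898) in Tac1-high cells and 0.0996 (0.0787 to 0.124) in the others, a 7.62-fold difference, and was found in 21.6% and 3.19% of cells. Ddc was 2.09-fold higher in Tac1-high cells, at 5.80 (5.45 to 6.16) against 2.78 (2.66 to 2.90), and Gch1 was 1.74-fold higher, at 4.63 against 2.65. Tph1 went the opposite way, at 27 (26.3 to 27.8) against 41.0 (40.6 to 41.5). Slc18a1, at 3.10 (2.85 to 3.37) and 3.34 (3.21 to 3.47), had overlapping intervals. Thus the 2 vesicular transporters were distributed differently: most Slc18a2 UMIs, 136 of 214, came from the Tac1-high cells, which held 555 of 3169 Slc18a1 UMIs.

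**Figure D4:**
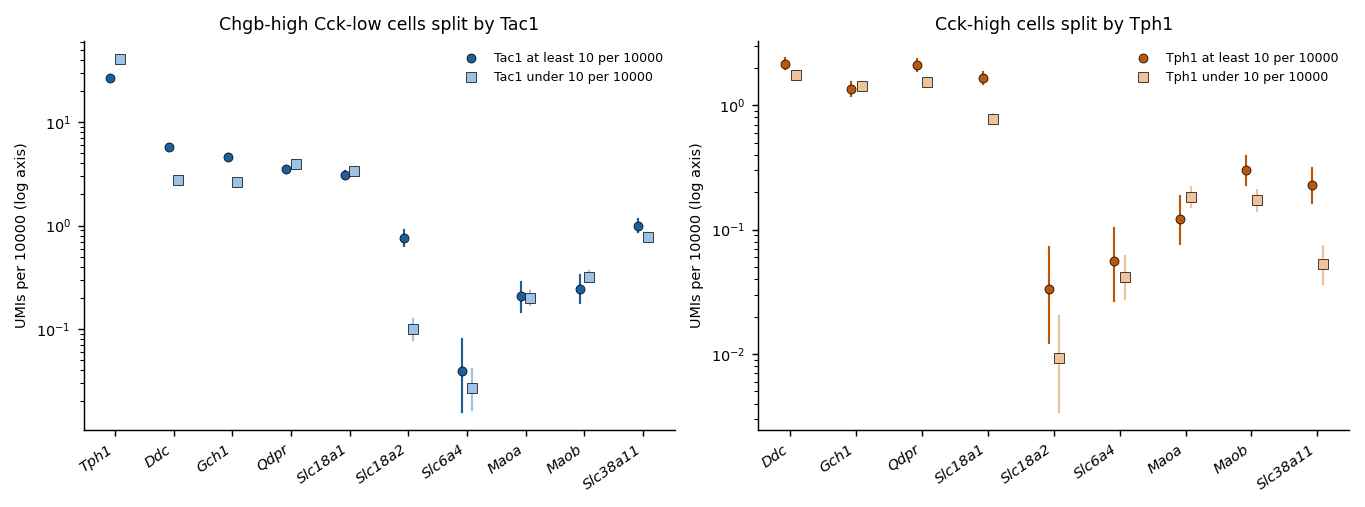
UMIs per 10000 (log axis) with 95% Poisson intervals; left, Chgb-high Cck-low cells with Tac1 of at least 10 per 10000 (431 cells) or under 10 (2101 cells); right, Cck-high cells with Tph1 of at least 10 (268 cells) or under 10 (978 cells). Slc18a2, Ddc, Gch1 and Slc38a11 are higher and Tph1 lower in the Tac1-high cells. Slc18a1, Slc38a11, Ddc, Qdpr and Maob are higher in the Cck-high cells with Tph1 of at least 10.

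Depth also went with the levels inside this group. Tph1 fell from 45.1 UMIs per 10000 in the 1000 cells with 2000 to 3000 UMIs to 23.2 in the 194 cells with 6000 to 10000, and Slc18a1 from 4.20 to 2.13 over the same bins. The part of depth in the levels was not tested. Across single cells Tph1 varied widely, with a median of 36.9 per 10000, a 10th percentile of 12.5 and a 90th of 77.6.

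Among Cck-high cells, 268 had Tph1 at 10 or more per 10000, and these had 2.14-fold more Slc18a1, at 1.66 (1.48 to 1.86) against 0.774 (0.708 to 0.845), and 4.35-fold more Slc38a11, at 0.229 (0.165 to 0.311) against 0.0528 (0.0365 to 0.0737). Ddc was also higher in these cells, at 2.16 (1.95 to 2.38) against 1.76 (1.66 to 1.86). So were Qdpr, at 2.11 (1.91 to 2.34) against 1.54 (1.45 to 1.64), and Maob, at 0.302 (0.227 to 0.394) against 0.172 (0.142 to 0.207). Gch1, at 1.35 (1.19 to 1.53) and 1.43 (1.34 to 1.52), had overlapping intervals, as did Slc18a2, Maoa and Slc6a4.

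Of the clearance genes, Maoa was higher in the remaining cells than in any EEC group, and Slc6a4 was not. Slc6a4 was at 0.0515 (0.0452 to 0.0585) in the remaining cells and 0.0449 (0.0316 to 0.0619) in Cck-high cells. In Gip-, Ghrl- or Sst-high cells it was at 0.0547 (0.0283 to 0.0955), and these 3 intervals overlapped. Maoa was at 0.722 (0.697 to 0.747) in the remaining cells and between 0.146 and 0.201 in the 3 EEC groups, below its level of 0.493 in free RNA. Within the remaining cells, 489 were led by the enterocyte markers Fabp1 and Reg1, and they also held Alpi, the intestinal alkaline phosphatase, at 5.34. Maoa there was at 4.41 (4.22 to 4.61), 22.0-fold above Chgb-high Cck-low cells, with a UMI in 89.6% of cells, or 55.0% after thinning. Slc6a4 in these cells was at 0.255 (0.211 to 0.306), 8.76-fold above Chgb-high Cck-low cells, which were at 0.0291 (0.0193 to 0.0421), and free RNA was at 0.0697. A Slc6a4 UMI was found in 21.7% (18.1 to 25.6%) of enterocyte-led cells and in 1.07% of Chgb-high Cck-low cells, or 4.29% and 0.728% after thinning.

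Maob did not follow Maoa. It was higher in Chgb-high Cck-low cells, at 0.307 (0.273 to 0.344), than in Cck-high cells, at 0.200 (0.171 to 0.233), in Gip-, Ghrl- or Sst-high cells, at 0.0547 (0.0283 to 0.0955), and in free RNA, at 0.0747. Enterocyte-led cells held still more, 0.563 (0.496 to 0.636). Enterocyte-led cells also had Ddc at 1.34 (1.24 to 1.45), above free RNA at 0.732 (0.619 to 0.861), with 0.829 for Tph1, below its level in free RNA.

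**Figure D5:**
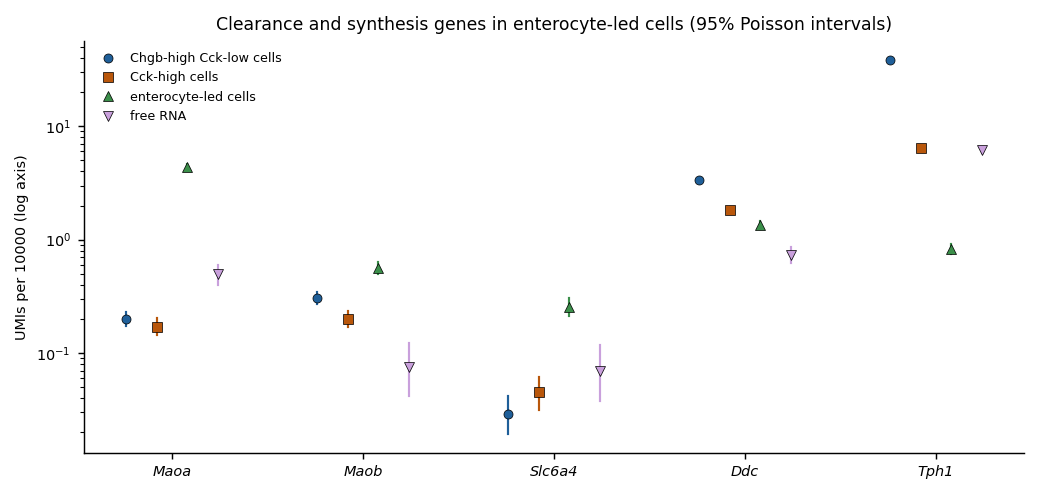
UMIs per 10000 (log axis) of Maoa, Maob, Slc6a4, Ddc and Tph1 in Chgb-high Cck-low, Cck-high and enterocyte-led cells and in free RNA, with 95% Poisson intervals. Enterocyte-led cells are highest for Maoa (4.41), Maob (0.563) and Slc6a4 (0.255) and lowest for Tph1 (0.829).

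Over the 9451 cells, the genes whose log-scaled levels were most like those of Tph1, among 11023 genes compared, were Chga (Pearson's r = 0.83), Gpx3 (0.82), Chgb (0.81), Ambp (0.78) and Krt7 (0.76). These coefficients describe cells of 1 library that share its depth and free RNA. Among the other members Slc18a1 ranked 15th (0.60), Qdpr 51st (0.47), Ddc 62nd (0.45), Slc38a11 123rd (0.37) and Gch1 188th (0.32). Maob (0.16) ranked 822nd and Slc18a2 (0.14) 1008th, whereas Slc6a4 (-0.05) ranked 9116th and Maoa (-0.16) 10718th. Low counts weaken such coefficients, and Slc18a2 had 258 UMIs and Slc6a4 315 over these cells.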

How the data were processed

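The genes and lists were chosen with earlier results of these data known. For the bulk libraries, the authors trimmed reads with Trim Galore 0.6.7, quantified them with Salmon 1.6.0 on the GRCm39 transcriptome of Ensembl, summed them per gene with tximeta and divided by DESeq2 normalization factors; the deposited signal values are these normalized counts, from which whole reads could not be recovered. For the droplet library, the authors used Cell Ranger 2.0.1 on mm10, and the deposited UMI counts are raw, per gene and barcode. Public titles of all 4 bulk groups name CCK+ cells, so the cell labels of the table were used and checked by Cck.

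Tests over the 22042 genes used limma 3.58.1 in R 4.3.3 on log2(normalized count + 1), with 1 mean per group, a mean-variance trend, 8 residual degrees of freedom, 95% intervals and Benjamini-Hochberg adjustment over all genes, and called at an adjusted p under 0.05. Fold changes are on that scale, which understates those of low genes. The p-values measure the spread between libraries within a group, which came from different mice. The reported fit had no term for the mouse, so CCK+ and CCK- libraries with the same letter entered as independent. Each library came from 1 mouse per the study's methods, and a letter shared by a CCK+ and a CCK- library was taken as the same mouse, which the sources do not state outright. After subtraction of group means, CCK+ and CCK- libraries with the same letter correlated at 0.0463 to 0.065 over genes, and others at -0.0455 to -0.0097. On simulated data with known changes in the CCK+ against CCK- comparison over 22042 genes, 68 of 100 genes changed by 1 on the log2 scale and 98 of 100 changed by 2 were recovered, with 7 false calls. The changed genes were drawn from those with higher means, noise was independent between libraries and all other genes were left unchanged, unlike the real data. The refeeding comparisons were not simulated. The named genes were all 10 members and, in the surrounding lists, genes that passed the test, at most 4 per list by absolute log2 fold change, and the 5 genes most like Tph1 over cells. Some genes of the surrounding lists are not reported here.

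Droplet values were computed with Python 3.11.15, numpy 2.4.6, scipy 1.17.1 and pandas 2.3.3, with seed 1, as UMIs of a gene per 10000 UMIs summed over a group. A cell that met several limits went to the first group. A remaining cell was led by a marker list when its level of that list was at least 2 times the mean of the remaining cells and the highest such ratio among 5 lists. No doublet caller was run; leaving out cells over 20000 UMIs was an alternative. The groups by Tac1, Tph1 and leading markers were added after the data were seen. Figures were drawn with matplotlib 3.10.9.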

Additional observations from a re-analysis of the deposited data

How the results depend on the processing

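In the CCK+ against CCK- comparison, 9 members passed the test in all 12 fits that left out 1 library each. In the refeeding comparison of CCK+ cells, the number of members called was 0 without the mean-variance trend, and ran from 0 to 1 when 1 library was left out in turn. That call, of Qdpr, was kept without CCK+ fasted mouse A or CCK- fasted mouse F and lost without each of the other 10 libraries; a lone missing CCK- library changes this comparison only through the shared spread. With the mouse as a replicate block, Qdpr kept its call (adjusted p = 0.0345, limma) and no call of a member changed in any comparison. Over all genes, 7431 were called between CCK+ and CCK- cells and 2169 in the fasted libraries alone. For refeeding in CCK+ cells 561 genes were called, 119 without the trend and 103 to 876 with 1 library left out, and in CCK- cells 272, 66 and 79 to 268. For the difference of the refeeding effects 1 gene was called, 2 without the trend, 0 with a pseudocount of 10 and 1 to 6 with 1 library left out. Over the single-member fold changes, 711 values kept their call and direction, 14 lost the call, 1 gained it and 14 changed sign. None of those 14 was called with either sign, and their adjusted p was at least 0.666. On the log2 scale, Ddc between CCK+ and CCK- cells was at -0.0414 in the fasted libraries alone, and after rescaling to the same sum refeeding gave 0.171 for Maoa in CCK+ cells and 0.0286 for Ddc in CCK- cells. For refeeding in CCK+ cells, Maoa was at 0.0047 without CCK+ fasted mouse F and 0.184 without CCK+ refed mouse E. For refeeding in CCK- cells, Ddc was at 0.178 without CCK- fasted mouse B, 0.0381 without CCK- refed mouse D and 0.1125 without CCK- refed mouse E. Without CCK- fasted mouse F, Tph1 was at 0.0224 and Slc38a11 at 0.256, and without CCK- refed mouse C they were at 0.256 and 0.1852. The difference of the refeeding effects for Slc18a2 was -0.0797 without CCK+ refed mouse E and -0.0464 without CCK- fasted mouse F. Of the droplet levels of the members in Chgb-high Cck-low and Cck-high cells, 37 values under the other settings fell outside the reported counting interval, and the others stayed inside it. The depth of the bulk libraries in reads is unknown, and 1 droplet library gives no spread between mice.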

Other observations

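Th, whose product hydroxylates tyrosine with the same cofactor as TPH1, was found at 0.264 UMIs per 10000 in Gip-, Ghrl- or Sst-high cells, 0.0340 in Cck-high cells and 0.0197 in Chgb-high Cck-low cells of the droplet library, with free RNA at 0.0299. Hdc, for histidine decarboxylase, was at 0.0410, 0.0182 and 0.0114 in the same order. Slc22a3, a low-affinity amine carrier, was at 0.0624 in Chgb-high Cck-low cells and 0.00243 in Cck-high cells, and Slc47a1 was at 0.0779 and 0.00486. Pcbd1 was at 2.32 in Chgb-high Cck-low cells, 2.77 in Cck-high cells and 0.961 in the remaining cells. These genes were chosen after their values were seen, and the values come from 1 library and were not tested.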
